A study of Rattus norvegicus with 24 samples.

Results

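BMS-21 against Control at 6 h is the later of a pair of contrasts in which INS-1 cells were exposed to a compound given by code name only and set against its vehicle. It holds 8 of the 24 libraries of the series: 4 from cells that received BMS-21 at 1 µM and 4 from cells that received DMSO (Control), each collected after 6 h. They were chosen by their titles, and libraries with the same replicate number were treated as a pair. INS-1 cells derive from an insulin-secreting rat tumour and are widely used to study the beta cell. They are a single tumour-derived line. All cells were seeded 3 days before treatment, held for 90 min in 3 mM glucose, and moved on day 4 into 11 mM glucose together with the agent, so a glucose step is shared by both groups. The other libraries used here are 4 of cells given the gut hormone GLP-1 (glucagon-like peptide 1) at 100 nM for 6 h, and the BMS-21 and Control libraries of 1 h, again with 4 replicates in each group. The labels do not say whether replicates were separate cultures, and the p-values then measure only the spread between these samples, which may be technical.

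The series sets BMS-21 beside GLP-1. As background, GLP-1 binds a receptor on the beta cell that couples to the G protein Gs and raises cAMP. cAMP acts through protein kinase A and the exchange factors EPAC, augments insulin release at raised glucose, and drives transcription through CREB and its CRTC coactivators, which bind the cAMP response element (CRE). CREB targets include both the early transcription factors of the Fos and Nr4a families and genes that damp the signal, such as Crem and phosphodiesterases. In beta cells insulin synthesis also loads the endoplasmic reticulum (ER), whose chaperone genes carry an ER stress element, and the ATF4 arm of the stress response acts through an amino acid response element.

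Promoters carrying these elements are shown for genes of the gene lists that rose at 6 h. They show what the sequence classes look like in genes whose values follow. Some members that carry an element and did not rise are named further below. The sequences are RefSeq's for the rat build GRCr8, whereas the submitters' processing notes name Rnor_5.0, and genes were matched by symbol only (9029 of 12640 tested genes). Each runs 5′ to 3′ from 250 bases before to 50 bases after the start of the gene, with the matched element in capitals. The first group holds the full CRE, TGACGTCA, and the genes are a neurosecretory peptide precursor, a small Maf transcription factor and an immediate early gene.
Vgf (chr12:25276971-25277270, minus strand): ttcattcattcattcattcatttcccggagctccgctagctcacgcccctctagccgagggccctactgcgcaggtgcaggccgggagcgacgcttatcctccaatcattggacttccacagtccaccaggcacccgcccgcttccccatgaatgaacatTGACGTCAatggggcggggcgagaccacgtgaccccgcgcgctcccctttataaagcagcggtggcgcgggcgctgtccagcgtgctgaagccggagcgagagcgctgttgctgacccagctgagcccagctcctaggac
Maff (chr7:112792537-112792836, plus strand): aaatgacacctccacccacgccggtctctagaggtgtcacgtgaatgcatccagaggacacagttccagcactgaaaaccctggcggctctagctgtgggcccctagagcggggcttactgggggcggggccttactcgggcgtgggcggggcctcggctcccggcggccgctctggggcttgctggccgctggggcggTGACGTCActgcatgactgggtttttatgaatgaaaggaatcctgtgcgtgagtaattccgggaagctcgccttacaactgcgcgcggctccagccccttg
Ier2 (chr19:40399123-40399422, plus strand): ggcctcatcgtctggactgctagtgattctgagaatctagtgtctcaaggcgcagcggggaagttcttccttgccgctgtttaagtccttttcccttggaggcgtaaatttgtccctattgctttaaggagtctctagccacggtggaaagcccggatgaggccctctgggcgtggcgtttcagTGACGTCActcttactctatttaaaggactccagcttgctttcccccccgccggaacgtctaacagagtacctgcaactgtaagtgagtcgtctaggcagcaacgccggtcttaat
The second group holds the ER stress element, which is CCAAT and CCACG with a spacer of 9 bases between them, on either strand, in an ER chaperone, an ER disulphide isomerase and an ER co-chaperone.
Hspa5 (chr3:38452766-38453065, plus strand): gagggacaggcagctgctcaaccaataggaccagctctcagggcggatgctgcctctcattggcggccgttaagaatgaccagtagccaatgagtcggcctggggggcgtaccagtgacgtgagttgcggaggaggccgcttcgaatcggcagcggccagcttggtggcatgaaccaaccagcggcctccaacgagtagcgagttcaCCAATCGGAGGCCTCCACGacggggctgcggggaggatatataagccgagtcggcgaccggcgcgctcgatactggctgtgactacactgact
Creld2 (chr7:121789134-121789433, plus strand): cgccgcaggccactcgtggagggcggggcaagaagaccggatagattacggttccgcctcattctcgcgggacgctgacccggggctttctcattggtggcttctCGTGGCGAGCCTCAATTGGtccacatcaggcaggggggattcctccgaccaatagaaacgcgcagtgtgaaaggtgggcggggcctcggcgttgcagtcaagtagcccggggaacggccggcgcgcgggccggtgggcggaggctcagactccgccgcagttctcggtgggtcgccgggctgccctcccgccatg
Dnajc3 (chr15:102432417-102432716, plus strand): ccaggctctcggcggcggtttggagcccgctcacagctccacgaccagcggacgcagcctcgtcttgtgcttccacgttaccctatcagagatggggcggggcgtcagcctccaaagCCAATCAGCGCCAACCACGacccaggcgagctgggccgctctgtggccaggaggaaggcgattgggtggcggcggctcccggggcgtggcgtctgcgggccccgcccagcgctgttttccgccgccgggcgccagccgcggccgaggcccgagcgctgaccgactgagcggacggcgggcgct
The third group holds the amino acid response element in the form TGATGNAA, on either strand, in a pseudokinase gene and a glutathione-degrading enzyme gene that ATF4 is known to induce.
Trib3 (chr3:161275484-161275783, minus strand): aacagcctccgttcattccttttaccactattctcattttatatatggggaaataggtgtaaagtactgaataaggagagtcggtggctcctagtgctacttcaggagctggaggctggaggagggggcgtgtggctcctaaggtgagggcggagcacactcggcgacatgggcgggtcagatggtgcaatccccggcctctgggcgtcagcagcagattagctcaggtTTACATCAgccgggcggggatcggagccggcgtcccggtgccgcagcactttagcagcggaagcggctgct
Chac1 (chr3:126795881-126796180, plus strand): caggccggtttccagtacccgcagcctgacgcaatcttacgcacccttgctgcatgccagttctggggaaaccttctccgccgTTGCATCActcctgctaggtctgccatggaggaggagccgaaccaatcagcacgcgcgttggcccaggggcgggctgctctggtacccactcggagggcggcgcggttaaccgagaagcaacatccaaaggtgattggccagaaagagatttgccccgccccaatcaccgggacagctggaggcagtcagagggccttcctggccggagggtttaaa

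Across the promoters of tested genes, 3.37% held the full CRE, 32.7% its half-site TGACG (which the full site contains), 0.155% the ER stress element (which contains a CCAAT box) and 1.81% TGATGNAA, each counted on both strands. Of the promoters of genes that rose with BMS-21, 4.41% held the full CRE and 38.9% the half-site, against 2.61% and 25.5% of the promoters of genes that fell and 3.26% and 32.9% of those of genes that did not pass the test. Only 14 promoters of tested genes held the ER stress element, of which 8 were among the 20 matched promoters of the ER chaperone list. The 8 included that of Ero1lb, which fell (-0.15), whereas the other genes rose. TGATGNAA stood in 7 of 17 promoters of the aminoacyl-tRNA synthetase list and in 6 of 25 of the amino acid supply list. Of these 6 genes, Trib3, Slc7a1 and Chac1 rose, Slc1a4 fell (-0.18), and Pycr1 and Slc38a1 did not pass. In the CREB target list 2 of 12 promoters held the full CRE and 6 held the half-site, and in the immediate early list 3 of 15 and 10. The half-site was not particular to these lists. It stood in 11 of 18 promoters of the cholesterol and fatty acid list, 11 of 20 of the ER chaperone list and 7 of 10 of the granule list. It was in 8 of 25 of the amino acid supply list, 5 of 17 of the synthetase list, 5 of 14 of the MAPK phosphatase list and 4 of 15 of the clock list. Of the promoters of genes at least 2-fold higher, 4.17% held the full CRE and 27.1% the half-site. A match is a description of these 300 letters and not a binding site.

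The 8 libraries held 11698315 to 13148970 reads assigned to genes: 12244350 to 13148970 with BMS-21 and 11698315 to 12727983 with Control. The lowest level counted as detected was 3 reads, or 0.228 to 0.256 RPM, a limit that covers counting error only. Values are the authors' normalised read counts, that is, reads divided by 1 size factor per library. The beta-cell markers Ins1, Ins2, Pdx1, Nkx6-1, Mafa, Slc2a2, Iapp and Chga were fixed to check the cells. Chga was not analysed here. The lowest of the other 7 were Mafa (753 ± 127 normalised counts with BMS-21 and 651 ± 55.7 with Control) and Nkx6-1 (636 ± 42.0 normalised counts with BMS-21 and 771 ± 46.5 with Control), so each was well above the floor. Of 19 markers of other islet, exocrine, duct, stromal and blood cells, 15 had a mean under 10 (at most 7.87), and Cela1, Amy2a3 and Ptprc were at 0 in all 8 libraries. The summed level of the 19 was 740 to 948 with BMS-21 and 873 to 1059 with Control, of which the keratin gene Krt7 made up most (633 ± 60.8 normalised counts with BMS-21 and 821 ± 79.0 with Control). Libraries of replicates 3 and 4 differed from those of replicates 1 and 2 in both groups for some genes. The comparison was therefore repeated within each of these sets, there without pairing by replicate number. Of the 5008 genes called below, 3478 (69.4%) also passed in replicates 1 and 2 alone and 3689 (73.7%) in replicates 3 and 4 alone. In 4991 the direction was the same in both sets. These genes were called on all 8 libraries, which favours such agreement, so it is no separate check.

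Of 12640 genes tested, 5008 (39.6%) passed the threshold of an adjusted p under 0.05 (limma with a replicate block), 2504 higher (19.8%) and 2504 lower (19.8%) with BMS-21. With values scaled to library totals instead, the split was 1709 higher and 3568 lower, and the median gene was then at -0.059. Fewer cells expressing a gene and less of its RNA per cell cannot be told apart in these bulk libraries. Most changes were small. Among the genes that rose, 84.5% changed by less than 1.5-fold, and among those that fell 82.7% did so. An increase of at least 2-fold was found in 150 genes (1.19%) and a decrease of that size in 87 (0.688%). The values of the BMS-21 and Control libraries did not overlap in 4070 genes (32.2%), and all 4 pairs pointed the same way in 6208 (49.1%). In the authors' deposited table, 3521 of 12228 genes with an adjusted p had one under 0.05, 1794 with a positive fold change (BMS-21 over Control) and 1727 with a negative one.

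**Figure D1:**
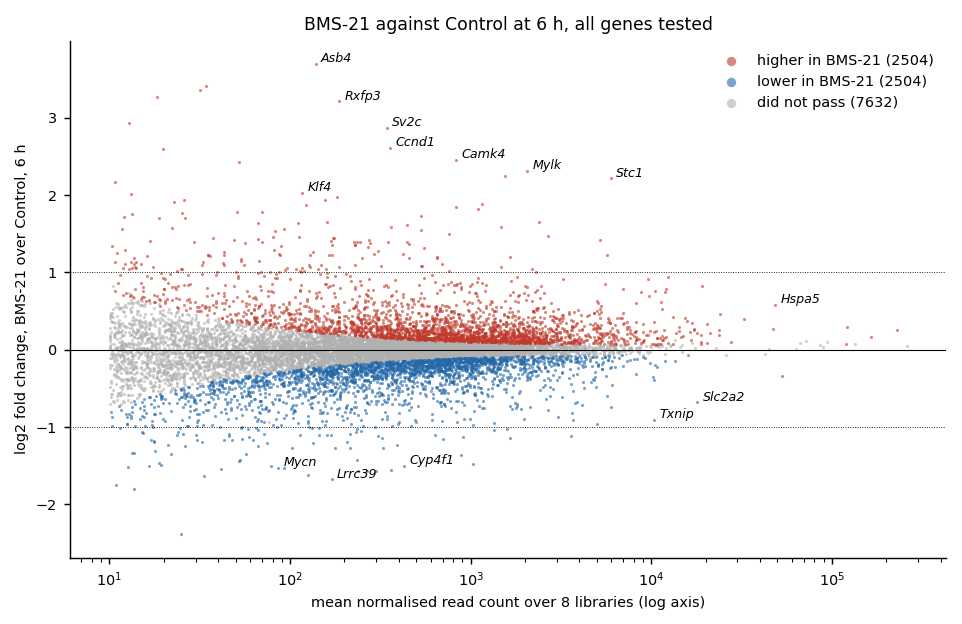
Fold change against level for the 12640 genes tested. Each point is a gene, the horizontal axis is the mean normalised read count over the 8 libraries (log axis), the vertical axis the log2 fold change of BMS-21 over Control at 6 h, and dotted lines mark 2-fold. Red and blue points are the 2504 genes higher and the 2504 lower, and Asb4, Rxfp3 and Sv2c stand furthest above 0 among the genes labelled.

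Fold changes below are on the log2(normalised count + 1) scale, which understates the change of genes with few reads. A log2 fold change is followed by its standard error (±) and a mean by its standard deviation, with n = 4 libraries in each group. The 10 largest increases were taken among genes with a mean of at least 50 and no overlap between the groups. Lack of overlap was thus a condition of the choice for these genes and for the 10 decreases below, not a finding. The increases were in a ubiquitin ligase adaptor, a peptide receptor, a vesicle protein, a cyclin and kinases. The others were in a growth factor receptor, a secreted glycoprotein, a transcription factor and a small GTPase. Asb4 (ENSRNOG00000009197), whose product recruits substrates to a ubiquitin ligase, had 239, 261, 285 and 245 normalised counts in the BMS-21 libraries, against 14.2, 25.8, 15.0 and 23.3 in the Control libraries. It rose 12.9-fold (3.69 ± 0.14, adjusted p = 5.23e-24), and every BMS-21 library was above every Control library. Rxfp3 (ENSRNOG00000023126), the relaxin-3 receptor, which couples to Gi and lowers cAMP, had 345, 366, 325 and 311 with BMS-21 and 37.0, 40.2, 26.0 and 40.5 with Control. The increase was 9.26-fold (3.21 ± 0.11), with no overlap between groups. Sv2c (ENSRNOG00000018094), a synaptic vesicle glycoprotein gene, had 601, 578, 671 and 567 normalised counts in the BMS-21 libraries, against 85.3, 89.7, 78.1 and 74.9 in the Control libraries. Its 4 BMS-21 values lay far above the Control values (7.29-fold, 2.87 ± 0.077).

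Ccnd1 (ENSRNOG00000020918), which encodes cyclin D1, the partner of CDK4 and CDK6 in G1, had 656, 621, 564 and 635 normalised counts in BMS-21 libraries and 99.5, 79.4, 115 and 111 in Control libraries. The groups were apart, with a 6.11-fold increase (2.61 ± 0.081). Camk4 (ENSRNOG00000020478), a calcium and calmodulin-dependent kinase that can phosphorylate CREB, had 1382, 1372, 1541 and 1357 with BMS-21 and 268, 251, 250.3 and 261 with Control. The increase was 5.46-fold (2.45 ± 0.052), and replicate 3 was the highest of the BMS-21 libraries. Mylk (ENSRNOG00000002215), the myosin light chain kinase, had 3279, 3396, 3568 and 3481 with BMS-21, against 706, 702, 649.7 and 701 with Control (2.31 ± 0.039). Igf1r (ENSRNOG00000014187), the receptor of insulin-like growth factor 1, had 2302, 2424, 3011 and 2478 normalised counts with BMS-21 and 531, 591, 534 and 489 with Control. Neither gene had overlapping groups, and Igf1r rose 4.74-fold (2.25 ± 0.058, adjusted p = 4.09e-16). Stc1 (ENSRNOG00000015075), the secreted glycoprotein stanniocalcin 1, had the smallest adjusted p of all genes (8.76e-43): 10018, 10228, 9395 and 9672 normalised counts with BMS-21, against 2157, 2184, 2000.0 and 2129 with Control (4.64-fold, 2.21 ± 0.029). The transcription factor gene Klf4 averaged 188 ± 18.2 normalised counts with BMS-21 and 45.9 ± 9.79 with Control (2.03 ± 0.11). Diras2, a small GTPase of the Ras superfamily, averaged 290.3 ± 24.1 normalised counts with BMS-21 and 73.2 ± 9.22 with Control (1.98 ± 0.089).

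**Figure D2:**
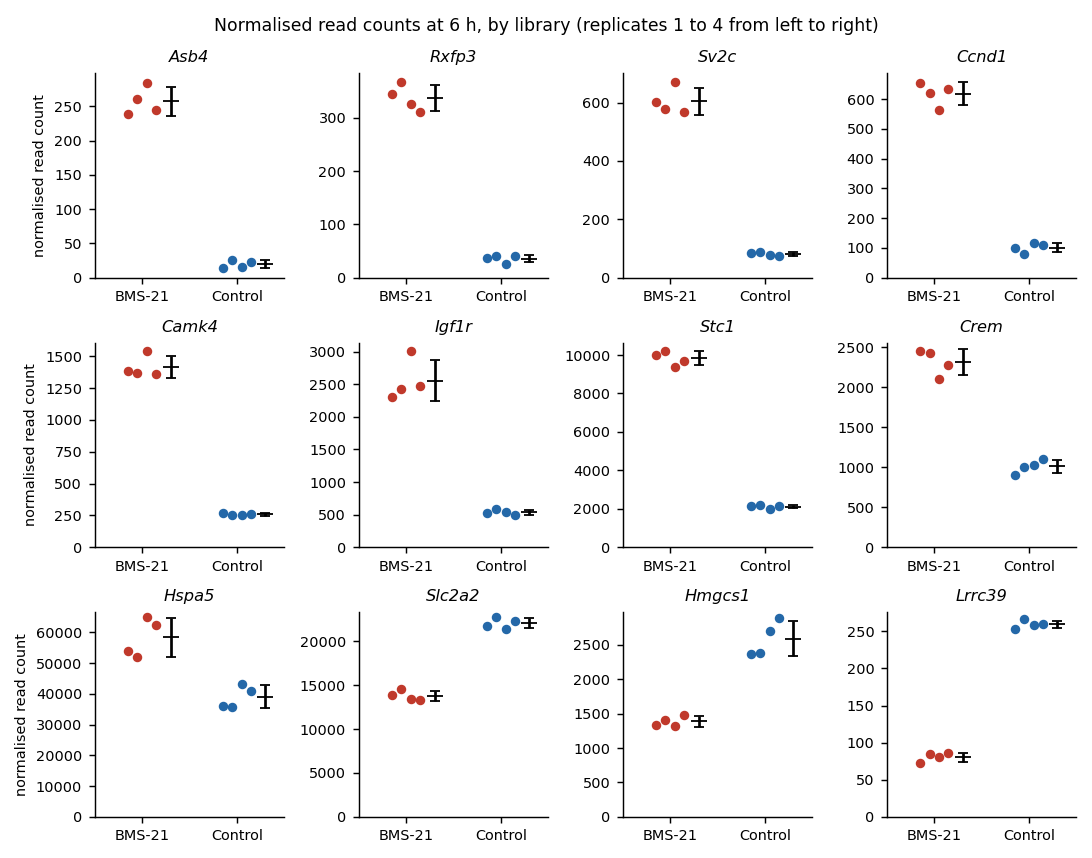
Normalised read counts at 6 h in each library for 12 genes described in the text, BMS-21 on the left and Control on the right of each panel, with replicates 1 to 4 from left to right. The bar beside each group is the mean with its standard deviation. In every panel the 4 BMS-21 points are apart from the 4 Control points, below them for Slc2a2, Hmgcs1 and Lrrc39.

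The 10 largest decreases by the same rule were about 3-fold. Lrrc39 (ENSRNOG00000015117), a leucine-rich repeat gene, had 72.1, 84.1, 80.2 and 85.8 normalised counts with BMS-21, against 253, 266, 258 and 260.0 with Control. It was 3.20-fold lower (-1.68 ± 0.089, adjusted p = 4.02e-20), with little spread in either group. Mycn (ENSRNOG00000006308), a transcription factor of the Myc family, had 32.9, 51.0, 41.1 and 52.3 with BMS-21 and 125, 138, 122 and 127 with Control. It was 2.89-fold lower (-1.53 ± 0.12). Tgm2 (ENSRNOG00000012956), the calcium-dependent transglutaminase 2, had 199, 191, 94.6 and 135 normalised counts with BMS-21, against 466, 495, 394 and 417 with Control. Its decrease was larger in replicates 3 and 4 than in replicates 1 and 2, and the groups stayed apart (-1.57 ± 0.098). Adamts8, a secreted metalloprotease gene, had lower levels in replicates 3 and 4 of both groups, with 176, 146, 89.5 and 131 normalised counts in the BMS-21 libraries and 457, 488, 315 and 338 in the Control libraries (-1.57 ± 0.079). The remaining decreases were in Gas7 (-1.62 ± 0.11), Rgs22 (-1.56 ± 0.09), the cortactin-binding gene Cttnbp2 (-1.56 ± 0.07), Prex2, a Rac exchange factor (-1.52 ± 0.12), Mgll, which encodes the lipase that breaks down monoacylglycerols (-1.50 ± 0.13), and the cytochrome P450 gene Cyp4f1 (-1.50 ± 0.064).

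The gene lists are read against the background: 19.8% of all tested genes rose and 19.8% fell, with a median log2 fold change over all tested genes of -0.0015. With library totals the median of each of the 24 lists was 0.054 to 0.057 lower. The medians of the apoptosis list (-0.050 in replicates 1 and 2 alone, 0.052 in replicates 3 and 4 alone), the activin list (-0.014 and 0.11) and the cAMP production list (0.043 and -0.030) differed in sign between these sets. The 24 lists hold 573 symbols, of which 528 matched an identifier and 464 passed the filter on the mean. The lists were chosen with earlier results of these data known, so part of an excess over the background may be built in. Their counts are descriptions and not tests. Members named beyond the 2 with the smallest adjusted p and the 2 that went against their list were chosen after their values were seen. Of the CREB and CRTC targets 15 of 17 tested members rose and 1 fell, with a median of 0.91. After Stc1, the smallest adjusted p was that of Pde10a, a phosphodiesterase gene (3535, 3959, 4152 and 4034 with BMS-21, against 1379, 1437, 1390.4 and 1458 with Control; 2.76-fold). Crem (ENSRNOG00000014900), whose short products repress CRE-driven transcription, had 2448, 2428, 2098 and 2275 normalised counts with BMS-21 and 906, 1007, 1022 and 1098 with Control. It rose 2.29-fold (1.20 ± 0.051, adjusted p = 3.57e-14). The cAMP-degrading Pde4b averaged 129.6 ± 12.4 normalised counts with BMS-21 and 61.8 ± 8.27 with Control (1.06 ± 0.12), and Irs2, an insulin receptor substrate that CREB induces in beta cells, 8783 ± 729.8 normalised counts with BMS-21 and 5089 ± 338 with Control (0.79 ± 0.028). Fst, which encodes the activin antagonist follistatin, had 50.5, 80.3, 57.6 and 65.1 normalised counts with BMS-21 and only 4.74, 5.16, 5.01 and 5.06 with Control, and rose 10.6-fold (3.41 ± 0.23). Vgf, whose promoter is shown above, averaged 12464 ± 599 normalised counts with BMS-21 and 6615 ± 318 with Control (0.91 ± 0.038). Sik1, a kinase that restrains the CRTC coactivators, rose as well (1.55 ± 0.057), as did the coactivator gene Ppargc1a (0.92 ± 0.11). Per1, a clock gene and an early CREB target, rose by only 1.15-fold, with overlapping groups: 791, 747, 660.4 and 777 normalised counts with BMS-21 and 657, 631, 661 and 634 with Control (adjusted p = 0.00118, and 0.101 in replicates 3 and 4 alone). The 1 member that fell was Pde3b, another phosphodiesterase gene (-0.28 ± 0.033).

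Of the immediate early transcription factors 15 of 24 tested members rose and 3 fell (median 0.50). Nr4a1 (ENSRNOG00000007607), an orphan nuclear receptor, had 430.4, 385, 385 and 398 normalised counts with BMS-21 and 146, 144, 160.2 and 162 with Control. It rose 2.60-fold (1.38 ± 0.073). Fos, a subunit of the factor AP-1, had 103, 106, 108 and 88.7 with BMS-21 and 30.3, 32.0, 32.0 and 33.4 with Control (1.63 ± 0.14, adjusted p = 9.76e-14). Every BMS-21 value of both genes was above every Control value. Maff and Ier2, whose CRE-bearing promoters are printed above, rose too (0.99 ± 0.13 and 0.92 ± 0.23), as did Fosl2 (1.45 ± 0.091) and Egr1 (0.92 ± 0.053). The 3 that fell were Arc, Klf10 (-0.37 ± 0.033) and Klf6 (-0.29 ± 0.094). Arc, which encodes a neuronal cytoskeletal protein, had 193, 208, 214 and 227 with BMS-21 and 335, 302, 313 and 311 with Control (-0.58 ± 0.072). The MAPK phosphatases and Sprouty proteins, which damp MAP kinase signalling, moved in the same direction as most early genes. Of 15 tested members 11 rose and 1 fell (median 0.52). Spry1 had 172, 208, 216 and 179 normalised counts with BMS-21 and 46.5, 52.6, 57.1 and 51.6 with Control (3.67-fold). Dusp4 had 416, 418, 456 and 458 with BMS-21, against 147, 189.8, 192 and 192 with Control (2.43-fold). Dusp6, which removes phosphate from ERK, rose by 1.36 ± 0.079. The member that fell, Dusp16, was lowest in replicates 3 and 4 of BMS-21, with 169, 181, 101 and 140.0 normalised counts against 191, 189, 177 and 177 with Control, and its groups overlapped. Its adjusted p of 0.0038 was 0.0829 without the block, 0.112 with DESeq2, 0.137 without replicate 3 and 0.448 in replicates 1 and 2 alone.

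**Figure D3:**
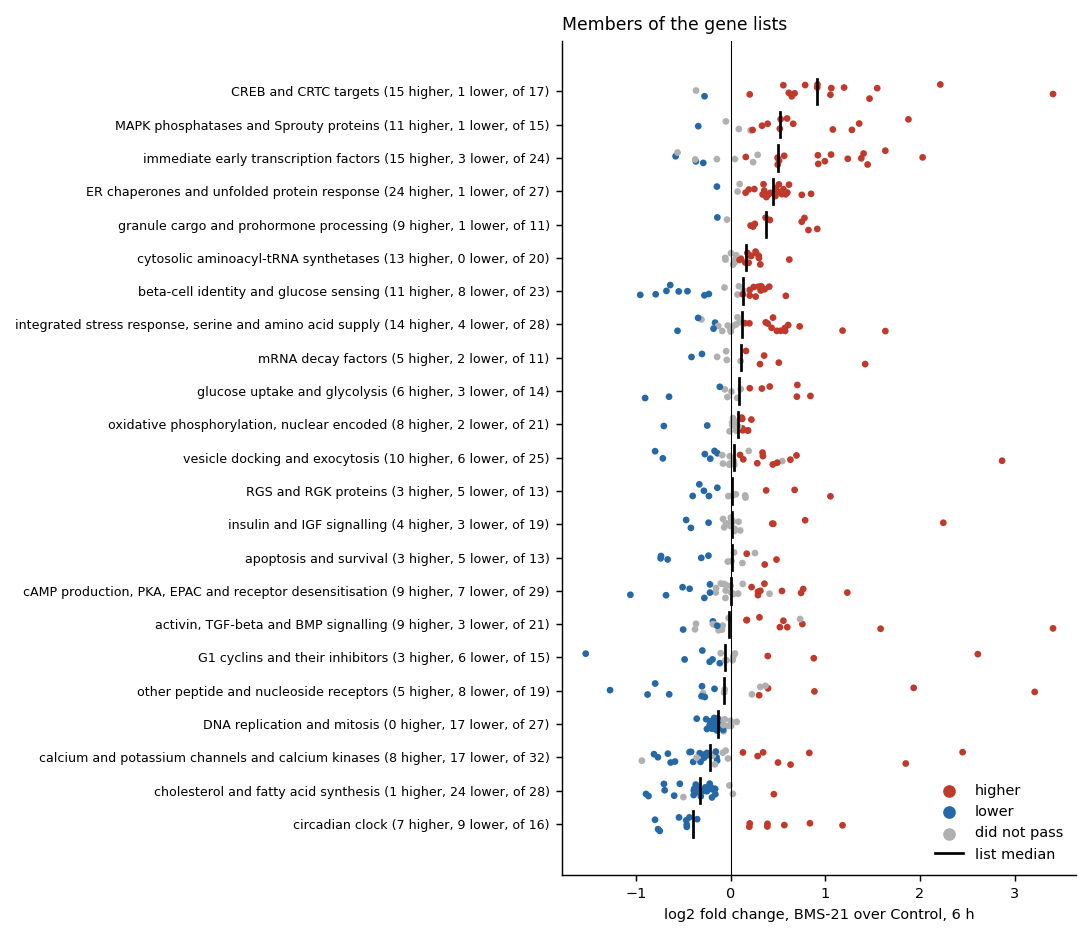
Log2 fold change of BMS-21 over Control at 6 h for the tested members of 23 gene lists, sorted by the list median (black bar). Each point is a gene, red where it rose, blue where it fell and grey where it did not pass; the counts stand beside each name. CREB targets lie furthest to the right, and the clock and cholesterol lists have the lowest medians.

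Genes of cAMP production and its receptors moved both ways. In this list 9 of 29 tested members rose and 7 fell, with a median of -0.002. Glp1r (ENSRNOG00000001152), the receptor of GLP-1, had 1481, 1489, 1609 and 1603 normalised counts with BMS-21 and 1294, 1291, 1350.3 and 1369 with Control. It rose 1.16-fold (0.22 ± 0.038, adjusted p = 5.46e-06) without overlap. Gcgr (ENSRNOG00000036692), the glucagon receptor, went the other way, with 2937, 3021, 2810.3 and 2870.1 with BMS-21 and 4735, 4800.0, 4484 and 4687 with Control (1.61-fold lower, -0.68 ± 0.03). The calmodulin-dependent phosphodiesterase gene Pde1c had 543, 591, 617 and 625 with BMS-21 and 228, 259, 247 and 276 with Control (2.35-fold). Among adenylyl cyclases, the enzymes that make cAMP, Adcy1 was 2.09-fold lower (151 ± 12.5 normalised counts with BMS-21 and 315 ± 18.9 with Control), whereas Adcy8 rose (0.77 ± 0.12). The stimulatory G protein gene Gnas rose (0.74 ± 0.073), and the kinase subunit gene Prkacb (-0.51 ± 0.04) and receptor kinase gene Grk5 (-0.44 ± 0.095) fell. Of the RGS and RGK proteins, which shorten G protein signals or limit calcium channels, 3 of 13 tested members rose and 5 fell (median 0.015, -0.042 when scaled to library totals; 2 fell with DESeq2). Rgs2 (157 ± 4.38 normalised counts with BMS-21 and 75.6 ± 10.4 with Control; 1.05 ± 0.10) and Gem (681 ± 42.7 normalised counts with BMS-21 and 426 ± 13.2 with Control; 0.67 ± 0.053), both also CREB targets, were among those that rose. Of other peptide and nucleoside receptors 5 of 19 tested members rose and 8 fell (median -0.07). Beside Rxfp3, the oxytocin receptor gene Oxtr rose 3.82-fold, with 235, 232, 266 and 260.3 normalised counts with BMS-21 and 75.8, 62.9, 64.1 and 55.6 with Control. Adora2b, a receptor for adenosine that couples to Gs, was 2.42-fold lower, with 195, 203, 171 and 193 with BMS-21, against 477, 505, 418 and 450.2 with Control. The fatty acid receptor gene Ffar1 (-0.88 ± 0.078) and the muscarinic receptor gene Chrm3 (-0.80 ± 0.13), which both raise insulin secretion through Gq, fell as well.

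Beta-cell identity genes split. In this list 11 of 23 tested members rose and 8 fell (median 0.13, 0.070 with library totals, 0.040 in replicates 1 and 2 alone and 0.23 in replicates 3 and 4 alone). Ins1 (ENSRNOG00000012052) and Ins2 are near-identical copies whose reads the authors' counting could have split, so their separate values are uncertain. Ins1 had 121204, 128987, 144896 and 138022 normalised counts with BMS-21 and 110248, 109134, 108644 and 106441 with Control. It rose 1.22-fold (0.29 ± 0.048, adjusted p = 0.00407). Ins2 had 14338, 14906, 22611 and 18355 with BMS-21 and 16175, 16289.6, 16873 and 15725 with Control, with replicates 3 and 4 of BMS-21 above and replicates 1 and 2 below the Control values, and did not pass the test (0.086 ± 0.14, adjusted p = 0.69). The transcription factor Pdx1 had 1839, 1737, 1735 and 1746 normalised counts with BMS-21 and 1742, 1605, 1632 and 1489 with Control. Its groups overlapped, and its 1.09-fold difference (0.13 ± 0.037, adjusted p = 0.00487) did not pass with library totals (0.138), with DESeq2 (0.0663), without replicate 4 (0.0709) or in replicates 1 and 2 alone (0.107). Isl1 (0.58 ± 0.046) and the potassium channel gene Kcnj11 (0.36 ± 0.043) rose. Slc2a2 (ENSRNOG00000011875), the glucose transporter GLUT2, had 13895, 14555, 13405 and 13316 with BMS-21 and 21794, 22838, 21442 and 22296 with Control and was lower (-0.68 ± 0.025, adjusted p = 3.82e-26). Mlxipl, which encodes the glucose-responsive factor ChREBP, averaged 5126 ± 198 normalised counts with BMS-21 and 7047 ± 456 with Control (-0.46 ± 0.028). Glis3 (-0.79 ± 0.046), Rfx6 (-0.64 ± 0.049) and Neurod1 (-0.55 ± 0.039), transcription factor genes of the islet lineage, fell too. Of granule cargo and prohormone processing genes 9 of 11 tested members rose and 1 fell (median 0.37). The list members Chga, Pcsk1, Pcsk1n, Cpe and Npy matched no identifier and are not in this count. Pam, the enzyme that amidates peptides, had 24485, 24139, 24789 and 23678 normalised counts with BMS-21, against 13710.1, 13981, 13839.9 and 13435 with Control (1.77-fold). Scg2, a granin, had 14861, 14716, 16089.5 and 14994 with BMS-21, against 8765, 8616, 8990.0 and 8975 with Control (1.72-fold). Scg5, the chaperone of prohormone convertase PCSK2, was the member that fell, with overlapping groups (-0.14 ± 0.027), whereas Pcsk2 itself rose (0.37 ± 0.028).

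Genes of the secretory machinery and of calcium handling also divided. Of the vesicle docking and exocytosis genes 10 of 25 tested members rose and 6 fell (median 0.039, -0.019 when scaled to library totals). Syt4, a synaptotagmin, averaged 2246 ± 135 normalised counts with BMS-21 and 1393 ± 162 with Control (0.69 ± 0.038), and the SNARE gene Snap25 rose (0.63 ± 0.038). Cadps, a priming factor for dense-core granules, averaged 698 ± 45.3 normalised counts with BMS-21 and 1148 ± 47.4 with Control (-0.72 ± 0.044), and the active zone gene Rims1 (-0.80 ± 0.19) and the synaptotagmin gene Syt13 (-0.27 ± 0.05) fell. Of the calcium and potassium channels and calcium kinases 8 of 32 tested members rose and 17 fell (median -0.22). Camk2d had 1247, 1231, 1487 and 1226 normalised counts with BMS-21 and 321, 334, 378 and 406 with Control. This kinase gene rose 3.60-fold (1.85 ± 0.053), whereas the kinase genes Camkk1 (-0.44 ± 0.061), Camkk2 (-0.42 ± 0.076), Camk2b (-0.32 ± 0.027) and Camk1 (-0.25 ± 0.046) fell. Of the pore subunits of voltage-gated calcium channels, Cacna1a (-0.77 ± 0.04) and Cacna1c (-0.66 ± 0.045) fell and Cacna1d rose (0.50 ± 0.034). The potassium channel gene Kcnb2 fell (-0.81 ± 0.13) and Kcnma1, the calcium-gated BK channel, rose (0.83 ± 0.043).

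Genes of protein folding in the ER rose nearly as a block. Of the ER chaperones and genes of the unfolded protein response, 24 of 27 tested members rose and 1 fell (median 0.45). Hspa5 (ENSRNOG00000018294), the main ER chaperone BiP, had 53799, 51972, 65001 and 62472 normalised counts with BMS-21 and 36107, 35606, 43209 and 40981 with Control. Replicates 3 and 4 were higher than replicates 1 and 2 in both groups, and within each pair BMS-21 was higher (1.49-fold, 0.58 ± 0.022, adjusted p = 2.24e-25). Hyou1, another chaperone, had 12654, 11877, 15632 and 14686 with BMS-21 and 8593, 8277, 9576 and 9216 with Control (1.53-fold). The other genes whose ER stress elements are printed above rose by 0.75 ± 0.037 (Creld2) and 0.56 ± 0.039 (Dnajc3). Sdf2l1 had the largest change of the list (0.85 ± 0.058), and the sensor gene Ern1 (0.60 ± 0.055) and its target Xbp1 (0.47 ± 0.029) rose. Atf6 (0.072 ± 0.039) and Edem2 (0.094 ± 0.039) did not pass. Ero1lb, the beta-cell ER oxidase, was lower with overlapping groups (531, 553, 656 and 577 with BMS-21 and 609.6, 651, 649 and 648 with Control). Its adjusted p of 0.0201 was 0.0644 without the block, 0.209 with DESeq2, 0.0726 to 0.149 without replicate 1, 2 or 4, and 0.430 in replicates 3 and 4 alone.

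Of the integrated stress response and amino acid supply genes 14 of 28 tested members rose and 4 fell (median 0.12, 0.064 with library totals; 2 fell with DESeq2 or in replicates 3 and 4 alone). Slc3a2, the shared heavy chain of amino acid transporters, had 3057, 3099, 3358 and 3141 normalised counts with BMS-21 and 1890.5, 1846, 1969 and 1930.3 with Control (1.66-fold). Its partner Slc7a5 rose 1.44-fold (2725 ± 191 normalised counts with BMS-21 and 1888 ± 65.0 with Control), and the cystine transporter gene Slc7a11 rose by 1.63 ± 0.11. The transcription factor genes Atf4 (0.45 ± 0.033) and Ddit3 (0.57 ± 0.054) rose, as did Trib3 (1.18 ± 0.082) and Chac1 (0.61 ± 0.14), whose response elements are printed above. Among enzymes of serine and one-carbon metabolism in the list, chosen after their values were seen, Shmt1 (734, 741, 689 and 748 with BMS-21, 1112, 1115, 1009 and 1070.4 with Control; -0.56 ± 0.044) and Psph (-0.35 ± 0.053) fell, and Psat1 (-0.13 ± 0.074) and Shmt2 (-0.091 ± 0.043) did not pass. Of the cytosolic aminoacyl-tRNA synthetases, which charge tRNAs, 13 of 20 tested members rose and 0 fell (median 0.16); 0 fell at an unadjusted p under 0.05 or with edgeR or DESeq2, and with library totals 11 rose and 1 fell. Tars, the threonine enzyme, had 2211, 2182, 2251 and 2192 normalised counts with BMS-21 and 1426, 1401, 1528 and 1403 with Control (1.54-fold). Hars, the histidine enzyme, rose 1.24-fold (1909.7 ± 75.6 normalised counts with BMS-21 and 1538 ± 13.7 with Control).

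Lipid synthesis genes fell together. Of the cholesterol and fatty acid synthesis genes 1 of 28 tested members rose and 24 fell (median -0.33). Hmgcs1 (ENSRNOG00000016552), which makes the precursor of mevalonate, had 1336, 1407, 1319.8 and 1484 normalised counts with BMS-21, against 2364, 2389, 2706 and 2894 with Control. Acaca (ENSRNOG00000034013), the first committed enzyme of fatty acid synthesis, had 2323, 2204, 2026 and 2082 with BMS-21, against 3917, 4013, 3788 and 4049 with Control. Both were apart in all libraries, 1.86-fold and 1.83-fold lower (-0.90 ± 0.039 and -0.87 ± 0.034). The regulator gene Srebf2 fell by less (-0.20 ± 0.034). Srebf1 did not pass (-0.015 ± 0.038). Stard4, a cytosolic sterol carrier, was the member that rose (1104, 1050.4, 1021 and 1047 with BMS-21, 733, 782, 748 and 818 with Control; 0.46 ± 0.045). The letters TCACNCCAC of the sterol regulatory element were in 1.10% of the promoters of tested genes and in 0 of the 18 matched promoters of this list.

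Of the glucose uptake and glycolysis genes 6 of 14 tested members rose and 3 fell (median 0.087), and 5 fell with library totals. The list members Slc2a3, Tpi1, Gapdh, Eno2, Pkm and Ldha matched no identifier. Txnip (ENSRNOG00000021201), which glucose induces and whose product restrains glucose uptake, had 6566, 7548, 7512 and 7258 normalised counts with BMS-21 and 12762, 13803, 14153 and 13337 with Control. It was 1.87-fold lower (-0.91 ± 0.026, adjusted p = 9.40e-30), and the related gene Arrdc4 was 1.57-fold lower (846 ± 55.8 normalised counts with BMS-21 and 1331 ± 85.1 with Control). The transporter gene Slc2a1 (0.84 ± 0.046) and the enzyme genes Pfkp (0.70 ± 0.044) and Aldoa (0.70 ± 0.046) rose. Nuclear genes of oxidative phosphorylation changed little: 8 of 21 tested members rose and 2 fell (median 0.072), and only 4 rose with library totals or in replicates 1 and 2 alone. Atp5a1, a subunit of ATP synthase, rose 1.13-fold (12189 ± 183 normalised counts with BMS-21 and 10769 ± 141 with Control). The mitochondrial transcription factor gene Tfam (-0.25 ± 0.039) and the coactivator gene Ppargc1b fell; Ppargc1b had 21.6, 25.5, 26.7 and 28.6 normalised counts with BMS-21 and 37.9, 44.3, 48.0 and 39.5 with Control (adjusted p = 9.18e-04, 0.0730 with DESeq2).

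All 16 tested clock genes passed the test, 7 of 16 tested members rose and 9 fell (median -0.40). The mean log2 fold change of the list was only -0.082, as members moved both ways. With DESeq2, in replicates 1 and 2 alone and in replicates 3 and 4 alone, 6 rose and 8 fell. With library totals 6 rose and 9 fell. Nfil3, a repressor of the clock output, had 916, 888, 919.6 and 897 normalised counts with BMS-21 and 434, 401, 408 and 355 with Control (2.27-fold). Cry2, a core repressor, rose 1.48-fold, with 1609, 1753, 1109.9 and 1329 with BMS-21 and 999, 1106, 842 and 931 with Control, lower in replicates 3 and 4 of both groups. The repressor gene Bhlhe40 was 1.35-fold lower (3059 ± 247 normalised counts with BMS-21 and 4136 ± 165 with Control). Npas2 (0.84 ± 0.10), Arntl (0.39 ± 0.063) and Per2 (0.39 ± 0.072) rose, whereas Per3 (-0.80 ± 0.096), Nr1d1 (-0.75 ± 0.082) and Dbp (-0.36 ± 0.058) fell.

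Cell cycle genes moved apart from cyclin D1. Of the G1 cyclins and their inhibitors 3 of 15 tested members rose and 6 fell (median -0.058; 3 fell with DESeq2). Ccnd3 rose with Ccnd1 (1005 ± 50.0 normalised counts with BMS-21 and 547 ± 34.2 with Control; 0.88 ± 0.047), while Ccnd2, the other D cyclin, fell (-0.49 ± 0.033). Of the DNA replication and mitosis genes 0 of 27 tested members rose and 17 fell (median -0.14), and 0 rose at an unadjusted p under 0.05 or with edgeR or DESeq2. In the same list 10 fell without the block, 7 with DESeq2 and 22 with library totals. In replicates 1 and 2 alone 1 rose and 7 fell (median -0.039), and in replicates 3 and 4 alone 0 rose and 19 fell (median -0.20). The replication helicase genes Mcm2 (2188 ± 19.5 normalised counts with BMS-21 and 2545 ± 53.9 with Control; -0.22 ± 0.033) and Mcm7 (-0.22 ± 0.034) had the smallest adjusted p. In insulin and IGF signalling 4 of 19 tested members rose and 3 fell (median 0.015, -0.043 with library totals, where 5 fell). Beside Igf1r and Irs2, Irs1 (0.44 ± 0.12) rose, and the binding protein gene Igfbp3 (-0.42 ± 0.047) fell. In the apoptosis list 3 of 13 tested members rose and 5 fell (median 0.0075, -0.050 with library totals), and 1 rose with DESeq2. The list members Mcl1, Bax and Hrk matched no identifier. The p53 target Bbc3 averaged 97.2 ± 8.35 normalised counts with BMS-21 and 163 ± 15.7 with Control (-0.74 ± 0.095), and the survival gene Bcl2l1 fell as well (-0.24 ± 0.036). Bcl2l2 (0.17 ± 0.04) and Bid (0.36 ± 0.088; adjusted p = 8.76e-04, 0.0601 with DESeq2) were among those that rose.

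In activin, TGF-beta and BMP signalling 9 of 21 tested members rose and 3 fell (median -0.023; 6 fell with library totals and 1 with DESeq2). Beside Fst, the ligand gene Tgfb2 rose 3.00-fold, with 597, 507, 576 and 496 normalised counts with BMS-21 and 248, 174, 187 and 131 with Control. Fstl3, a relative of follistatin, fell (105 ± 14.9 normalised counts with BMS-21 and 148 ± 17.7 with Control). The receptor gene Acvr1b fell with overlapping groups (-0.19 ± 0.06, adjusted p = 0.0102, 0.160 with DESeq2, 0.0930 without replicate 1, 0.0745 without replicate 2 and 0.470 in replicates 3 and 4 alone). Of the mRNA decay factors 5 of 11 tested members rose and 2 fell (median 0.10; 4 fell with library totals). Btg1, an antiproliferative partner of the deadenylase, had 7637, 7713, 7211 and 7657 normalised counts with BMS-21, against 2619.5, 2844, 2819.8 and 3018 with Control (2.68-fold). Its relative Tob1 rose 1.42-fold (1142 ± 39.7 normalised counts with BMS-21 and 804 ± 51.0 with Control). Zfp36, which directs transcripts with AU-rich elements to decay, fell (-0.42 ± 0.077), as did Cpeb2 (-0.30 ± 0.075; adjusted p = 9.25e-04, 0.0540 with DESeq2 and 0.0895 in replicates 3 and 4 alone). Of the markers of other cells, 4 of 19 were tested, of which Krt7 fell (-0.38 ± 0.047) and Gcg, the glucagon gene, rose with overlapping groups (141 ± 28.9 normalised counts with BMS-21 and 106 ± 13.9 with Control; adjusted p = 0.00118, 0.0657 with DESeq2 and 0.123 in replicates 3 and 4 alone).

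The change of the BMS-21 response between 1 h and 6 h was tested as an interaction over 16 libraries with edgeR on recovered reads. Of 12985 genes, 3746 (28.8%) passed, 1977 with a more positive change at 6 h (15.2%) and 1769 with a more negative one (13.6%). A difference of at least 2-fold was found in 116 genes in the positive direction (0.893%) and 137 in the negative direction (1.06%). Of the 24 immediate early transcription factors in this test, 15 had a more negative change at 6 h and 7 a more positive one, with a median difference of -1.04, against 0.0066 over all genes. Among those with a more positive change, Klf10 was further below Control at 1 h than at 6 h (-0.88 at 1 h, -0.36 at 6 h). Nr4a1 had 9283, 8433, 8952 and 9252 normalised counts with BMS-21 at 1 h, against 450.4, 445, 445 and 464 with Control, within the authors' 1 h table, whose scale is set apart from that of 6 h. Its log2 change was 4.31 at 1 h and 1.39 at 6 h, a difference of -2.92 (adjusted p = 9.07e-27). For Fos the values at 1 h were 824, 875, 978 and 750.2 with BMS-21 and 63.3, 55.9, 57.2 and 52.9 with Control. Its log2 change was 3.90 at 1 h and 1.67 at 6 h (difference -2.23). Among genes with an official symbol that average 50 or more, the most negative differences were in Nr4a3 (-3.51), Nr4a1, Nr4a2 (-2.90), Rgs2 (-2.55), Tiparp (-2.52) and Fosl2 (-2.50). Tiparp, a mono-ADP-ribosyltransferase gene, had a log2 change of 2.50 at 1 h and -0.018 at 6 h. Among the fixed CREB targets, Per1 (1.81 at 1 h, 0.21 at 6 h), Crem (2.02 and 1.21) and Irs2 (1.10 and 0.79) had a smaller change at 6 h, whereas Pde4b had a larger one (0.26 at 1 h, 1.08 at 6 h, difference 0.82, adjusted p = 6.18e-04).

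**Figure D4:**
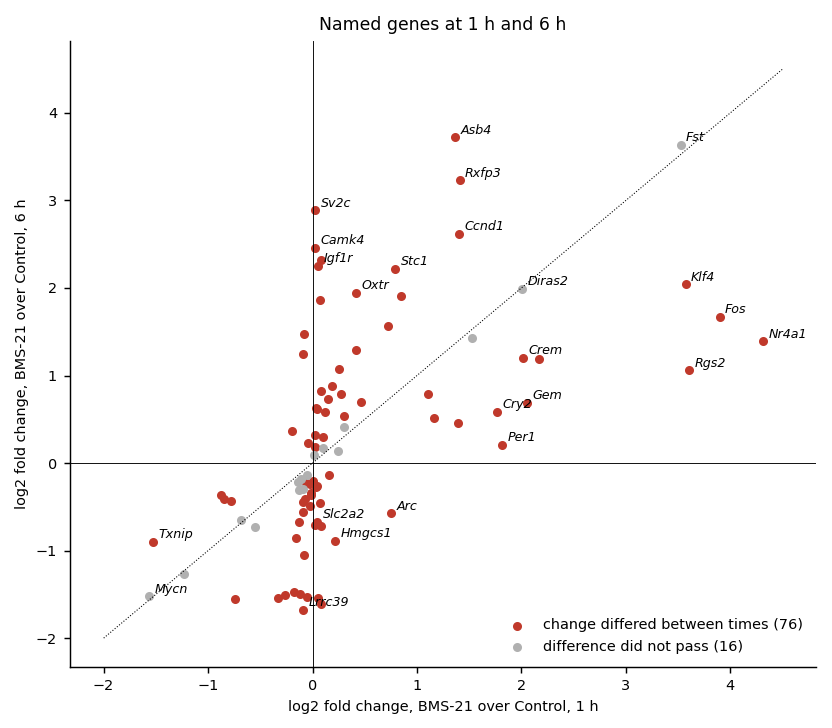
Log2 fold change of BMS-21 over Control at 1 h (horizontal axis) and at 6 h (vertical axis) for the 92 named genes, from edgeR on 16 libraries. Red points are the 76 genes whose change differed between times, grey points the 16 whose difference did not pass, and the dotted line marks equal change. Sv2c, Camk4 and Igf1r stand on the vertical axis near 0 at 1 h, and Nr4a1, Fos and Rgs2 lie far to the right.

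Of genes averaging 50 or more, 5 of the 6 named genes with the most positive differences had a log2 change under 0.25 in size at 1 h. Sv2c had 121, 107, 139 and 133 normalised counts with BMS-21 at 1 h and 105, 115, 148 and 123 with Control, groups that overlapped. Its log2 change was 0.024 at 1 h and 2.89 at 6 h (difference 2.86, adjusted p = 5.91e-21). Camk4 had 296, 306, 227 and 275 with BMS-21 and 285, 268, 262 and 268 with Control at 1 h. Its change was 0.021 at 1 h and 2.46 at 6 h. Mylk (0.08 at 1 h, 2.32 at 6 h), Igf1r (0.054 and 2.26) and Doc2b, a calcium sensor of exocytosis (-0.039 and 1.80), were alike in this. Asb4, the other one, was already above Control at 1 h (126, 93.9, 81.1 and 102 with BMS-21, against 32.6, 42.0, 43.9 and 37.7 with Control; 1.36 at 1 h and 3.72 at 6 h). Glp1r (-0.043 at 1 h, 0.23 at 6 h) and Ins1 (0.096 and 0.30) had a more positive change at 6 h, by 0.27 and 0.20. Of the decreases, Slc2a2 (0.045 at 1 h, -0.67 at 6 h) and Hmgcs1 (0.22 and -0.89) had a more negative change at 6 h (adjusted p = 5.01e-20 and 2.05e-18), whereas Txnip was further below Control at 1 h (-1.53) than at 6 h (-0.90, adjusted p = 1.63e-17). Arc was above Control at 1 h (0.75) and below it at 6 h (-0.58). For Diras2 (2.01 and 1.99), Mycn (-1.56 and -1.52), Adora2b (-1.23 and -1.27), Fst (3.52 and 3.64), Btg1 (1.53 and 1.43) and Ins2 (0.013 and 0.095) the difference between times did not pass.

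BMS-21 was also set directly against GLP-1 at 6 h, without the Control libraries; the doses were 1 µM and 100 nM, so they were not matched. Of 12629 genes, 217 (1.72%) passed with the block, 97 higher (0.768%) and 120 lower (0.95%) with BMS-21, and 1 of them, lower, by at least 2-fold (0.00792%). Without the block 2 genes passed, and without replicate 4 the count was 49, without replicate 2 it was 103 and without replicate 3 it was 139. In the authors' deposited table, 19 genes had an adjusted p under 0.05. Elfn2, a synaptic adhesion gene, had 37.5, 36.2, 38.4 and 39.7 normalised counts with BMS-21 and 88.0, 70.5, 56.0 and 61.0 with GLP-1. It had the most negative difference of the named genes (-0.82 ± 0.15, adjusted p = 3.08e-04, and 0.0649 without the block), and its groups did not overlap. Tgm2 was lower with BMS-21 in all 4 pairs, with 195, 188, 92.9 and 133 with BMS-21 and 224, 250.2, 156 and 186 with GLP-1 (-0.46 ± 0.085, adjusted p = 4.95e-04). Lower values were also found for Fam89a (-0.50 ± 0.14), Kcna6 (-0.45 ± 0.11), Cpne9 (-0.44 ± 0.11) and Tmem200a (-0.43 ± 0.11). On the higher side Adm, the precursor of the vasodilator adrenomedullin, had 92.2, 111, 191 and 93.1 with BMS-21 and 66.8, 71.5, 146 and 57.8 with GLP-1. The groups overlapped, with replicate 3 high in both, and the difference within pairs was 0.54 ± 0.11 (adjusted p = 0.00138). Diras2, one of the 10 largest increases over Control, had 298, 252, 305 and 287 with BMS-21 and 238, 241, 239 and 193 with GLP-1 (0.33 ± 0.072, adjusted p = 0.00484). Cited2 (0.42 ± 0.063), Trib3 (0.37 ± 0.064), Trappc6a (0.37 ± 0.097) and Nfatc1 (0.33 ± 0.063) completed the 6. Each of these 12 genes lost its call without the block and in replicates 3 and 4 alone, and 10 did so in replicates 1 and 2 alone. The fits in these sets had no block either, so they do not tell the block and the set apart. Fam89a was not called with edgeR, and DESeq2 gave no adjusted p for 11 of the 12 and called Cited2.

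**Figure D5:**
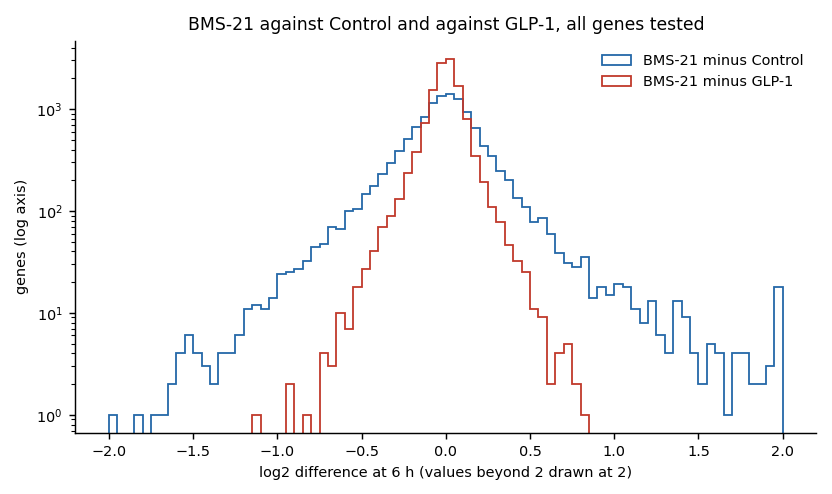
Number of genes (log axis) by log2 difference at 6 h, in steps of 0.05, for BMS-21 minus GLP-1 (red) and BMS-21 minus Control (blue); values beyond 2 in either direction are drawn at 2. Both comparisons use the same BMS-21 libraries. In the comparison with GLP-1 0 genes passed at 2-fold or more in the higher direction, against 150 in the comparison with Control.

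None of the 10 genes fixed for every comparison passed the limma test between BMS-21 and GLP-1 at 6 h (2 had an unadjusted p under 0.05, and edgeR and DESeq2 called 0 and 0). Crem had 2408, 2386, 2059.8 and 2236 normalised counts with BMS-21 and 2488, 2443, 2074 and 2243 with GLP-1 (-0.024 ± 0.03, adjusted p = 0.821). Irs2 had 7891, 8159, 9153 and 9326 with BMS-21 and 8194, 8035, 8117 and 8901 with GLP-1 (0.052 ± 0.026). Both genes overlapped between agents. Differences were 0.018 ± 0.057 for Nr4a1, -0.056 ± 0.033 for Glp1r, -0.025 ± 0.032 for Pdx1, -0.069 ± 0.094 for Pde4b, 0.049 ± 0.064 for Ins1 and -0.11 ± 0.043 for Per1 (adjusted p = 0.24). The largest were 0.25 ± 0.11 for Fos (adjusted p = 0.332) and 0.15 ± 0.14 for Ins2 (adjusted p = 0.782). A p that misses the threshold does not show that the agents act alike.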

How the data were processed

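RNA of INS-1 cells was sequenced with a kit that does not mark strand, so reads of overlapping or antisense genes cannot be told apart. The submitters' processing notes name the rat build Rnor_5.0, TopHat2 2.0.12, Bowtie2 2.2.3.0, SAMtools 0.1.19.0, Subread, DESeq and DESeq2 1.6.3 without their roles. The authors deposited tables of 26404 genes for each pair of groups holding their normalised read counts, a linear signal, and 3 of the 6 tables were used; 24 per-library columns of the other 3 were not used here. Each also gives a log2 fold change and an adjusted p-value as computed by the authors. For each library, 100% of values were whole multiples of 1 step per library (within 0.001), which gave back the reads.

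BMS-21 was tested against Control and against GLP-1 at 6 h with limma 3.58.1 (trend and robust) in R 4.3.3. Normalised counts were log2-transformed after adding 1, genes whose mean was below 10 were left out, and the model had the replicate number as a block; p-values were adjusted by Benjamini-Hochberg over all genes tested. The change between 1 h and 6 h was tested with edgeR 4.0.16 by its quasi-likelihood test, using TMM factors and the filterByExpr filter. It ran on recovered reads because each table was scaled on its own. The tests were also run on simulated data with 200 changed genes. The test against Control (12609 genes) recovered 70.1% of genes changed 1.25-fold, 98.5% of those changed 1.5-fold and 100% of those changed 2-fold. Its false calls were 3.24%. The test against GLP-1 (12586 genes) recovered 67.2%, 98.5% and 100% at these sizes, with 3.80% false calls. That of the change with time (12693 genes) recovered 37.3%, 94.0% and 100%, with 5.52%. The simulation had far fewer changed genes than the 5008 called against Control in the measured data. Its rates were not broken down by level, so they do not give the recovery of genes with few reads, which the tests include. Recovery in the measured, weakly paired libraries was not tested. No 6 h library was a duplicate of another of its group (chi-squared divided by degrees of freedom was 1.30 to 5.44). Replicates 1 and 2 were close to each other, as were replicates 3 and 4. In Control these ratios were 1.30 and 1.49, against 3.04 to 3.25 between the sets. With GLP-1 they were 1.42 and 1.87, against 3.11 to 4.29, and with BMS-21 2.21 and 2.76, against 3.32 to 5.44. The tests treat the 4 pairs as independent, which the labels do not establish. Libraries of 1 h were not checked in this way.

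The 8 libraries, the gene lists and the rule for named genes were chosen with earlier results of these data known. The rule took up to 10 increases and 10 decreases by size (adjusted p under 0.05, mean of 50 or more, an official symbol, no overlap), per list the 2 most significant members at most and up to 2 that went against it, 10 genes fixed by name, and up to 6 genes in each direction of the other 2 comparisons. Some genes it chose are counted but not reported here. List members named beyond it were chosen after their values were seen. Same-numbered libraries of BMS-21 and GLP-1 deviated together from their group means (r 0.125 to 0.205 over all tested genes). The highest correlation of each with another number was 0.0645 to 0.104. Over genes averaging 50 or more, replicate 1 correlated more with another number (0.214) than with its own (0.203). The numbers therefore pair these samples only weakly. For BMS-21 and Control the same-number correlations were under 0.1 for replicates 1 and 4, and 0.140 and 0.186 for replicates 2 and 3. The numbers pair these libraries only weakly too, and values without the block are given with the other settings. Alternatives were the fit without the block, pseudocounts of 0.5 and 5, a filter at a mean of 50, and no filter. Others were TMM factors or library totals, and edgeR and DESeq2 1.42.0 on the recovered reads. Each replicate was also left out, and replicates 1 and 2 or 3 and 4 were fitted alone, without the block.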

Additional observations from a re-analysis of the deposited data

Results flagged for a closer look

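In 9 of 183 groups of 4 libraries of named genes, 1 library stood apart from the other 3 by Dixon's test, and chance flags about 1 group in 20. The highest BMS-21 library stood apart for Camk4 in replicate 3 (1541 normalised counts, median of the others 1372), Camk2d in replicate 3 (1487 normalised counts, median of the others 1231), Psph in replicate 1 (512 normalised counts, median of the others 474) and Pdx1 in replicate 1 (1839 normalised counts, median of the others 1737). The lowest BMS-21 library stood apart for Btg1 in replicate 3 (7211 normalised counts, median of the others 7657). The lowest Control library stood apart for Mylk in replicate 3 (649.7 normalised counts, median of the others 702), Pde3b in replicate 1 (2762 normalised counts, median of the others 2923), Dusp4 in replicate 1 (147 normalised counts, median of the others 192) and Ero1lb in replicate 1 (609.6 normalised counts, median of the others 649).

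The response to BMS-21 differed between 6 h and 1 h in 76 of the 92 named genes (interaction term of edgeR's quasi-likelihood test, adjusted p under 0.05), 34 with a more positive and 42 with a more negative log2 change at 6 h. Values are the log2 change at 6 h minus that at 1 h, grouped by the fitted changes with no test at each time; not every gene counted is named. Genes near Control at 1 h (log2 change under 0.25 in size) and above it at 6 h were Sv2c (2.86), Camk4 (2.44), Mylk (2.24), Igf1r (2.2), Camk2d (1.78), Pde10a (1.55), Pde1c (1.33), Pam (0.75), Ccnd3 (0.70), Tars (0.59), Slc3a2 (0.59) and Hyou1 (0.58). In the same class were Bid (0.56), Hspa5 (0.46), Hars (0.30), Glp1r (0.27), Ins1 (0.20) and Atp5a1 (0.16). Genes above Control at 1 h and further above it at 6 h were Asb4 (2.36), Rxfp3 (1.82), Oxtr (1.52), Stc1 (1.43), Ccnd1 (1.21), Spry1 (1.06), Dusp4 (0.87), Tgfb2 (0.85), Pde4b (0.82), Scg2 (0.51), Syt4 (0.23) and Slc7a5 (0.23). Genes further below Control at 1 h than at 6 h were Txnip (0.63), Klf10 (0.52), Zfp36 (0.44) and Bhlhe40 (0.35). Genes further above Control at 1 h than at 6 h were Nr4a1 (-2.92), Rgs2 (-2.55), Fos (-2.23), Per1 (-1.60), Klf4 (-1.53), Gem (-1.37), Cry2 (-1.18), Nfil3 (-0.98), Stard4 (-0.93), Crem (-0.81), Tob1 (-0.65) and Irs2 (-0.31). A gene above Control at 1 h and below it at 6 h was Arc (-1.33). Genes near Control at 1 h and below it at 6 h were Gas7 (-1.70), Rgs22 (-1.59), Lrrc39 (-1.59), Prex2 (-1.48), Mgll (-1.37), Cyp4f1 (-1.30), Hmgcs1 (-1.11), Adcy1 (-0.97), Ppargc1b (-0.80), Cadps (-0.73), Slc2a2 (-0.72) and Acaca (-0.70). In the same class were Gcgr (-0.54), Fstl3 (-0.47), Shmt1 (-0.47), Mlxipl (-0.36), Krt7 (-0.35), Igfbp3 (-0.34), Psph (-0.32), Syt13 (-0.31), Pde3b (-0.30), Ero1lb (-0.29) and Tfam (-0.22). In the same class were Mcm2 (-0.21) and Bcl2l1 (-0.17). Genes below Control at 1 h and further below it at 6 h were Tgm2 (-1.25), Cttnbp2 (-1.20) and Adamts8 (-0.81).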

How the results depend on the processing

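With other scaling, filter, pseudocount, block or edgeR, the 5008 genes against Control became 4253 (no replicate block) to 5277 (library totals). The count was 4065 to 4637 with a replicate left out. In replicates 1 and 2 alone 3850 genes passed, and in replicates 3 and 4 alone 4147. The fits within these sets, here and against GLP-1, had no block. With DESeq2 the count against Control was 2868, of which 2851 were among the 5008. For this pair the correlations of same-numbered libraries were 0.074 to 0.186 over all tested genes and 0.119 to 0.306 over genes averaging 50 or more; with all tested genes, replicate 1 correlated more with another number (0.104) than with its own (0.0738). Without the block 4251 of the 5008 genes kept their call. Against GLP-1, the 217 genes became 2 without the replicate block, 36 with DESeq2, 37 in replicates 1 and 2, 39 in replicates 3 and 4, and 49 to 309 with a replicate left out. For the change with time the 3746 genes became 2753 without the replicate block, 2022 with DESeq2 and 2943 to 3251 with a replicate left out. Of 1378 values of the 92 named genes against Control under alternatives, 1353 kept direction and call and 25, in 9 genes (Dusp16, Ero1lb, Acvr1b, Pdx1, Per1, Gcg, Cpeb2, Ppargc1b and Bid), kept direction and lost the call; 0 changed direction. The cause was not tested. With 4 libraries per group of 11698315 to 13148970 reads, the test against Control recovered 98.5% of simulated 1.5-fold changes, and smaller changes less often. Recovery of genes with few reads is not given by these rates.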

Other observations

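Several genes that no list held and that rose with BMS-21 at 6 h encode secreted peptides. All genes in these paragraphs were chosen after their values were seen. Nmu, the precursor of neuromedin U, a neuropeptide that acts through Gq-coupled receptors, had 62.8, 55.7, 49.4 and 65.1 normalised counts with BMS-21, against 6.64, 3.09, 4.00 and 6.07 with Control (3.35 ± 0.23, adjusted p = 4.15e-16, limma). Cck, the precursor of the gut hormone cholecystokinin, had 1134, 1213, 1081 and 1079.6 with BMS-21, against 431, 443, 353 and 374 with Control (1.49 ± 0.049). Tac1, the precursor of substance P, had 385, 328, 478 and 415 with BMS-21, against 139, 135, 160.2 and 163 with Control (1.41 ± 0.073). In these 3 genes the groups did not overlap. Secretin (Sct; 213 ± 33.2 normalised counts with BMS-21 and 102 ± 3.77 with Control), CART (Cartpt; 154 ± 26.9 normalised counts with BMS-21 and 75.6 ± 1.31 with Control) and adrenomedullin (Adm; 124 ± 47.9 normalised counts with BMS-21 and 51.5 ± 16.4 with Control) were also higher, by 1.04, 1.00 and 1.23 on the log2 scale. Gad2, which makes the transmitter GABA, rose (81.5 ± 6.35 normalised counts with BMS-21 and 30.7 ± 3.85 with Control; 1.38 ± 0.14), while Gad1, the other enzyme of this step, fell (626 ± 35.9 normalised counts with BMS-21 and 748 ± 19.7 with Control; -0.26 ± 0.049).

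Receptor genes outside the lists moved in both directions. Ntsr1, the neurotensin receptor, had 29.9, 29.3, 42.2 and 36.5 normalised counts with BMS-21 and 1.90, 5.16, 7.01 and 7.08 with Control (2.59 ± 0.27), and the nicotinic receptor gene Chrna7 had 44.3, 46.3, 32.9 and 41.4 with BMS-21 and 8.53, 7.22, 13.0 and 12.1 with Control (1.93 ± 0.23). The adrenergic receptor gene Adra1a rose (2.17 ± 0.34), with few reads in either group. On the lower side, Gria2, a glutamate receptor subunit, averaged 107 ± 7.10 normalised counts with BMS-21 and 232 ± 29.9 with Control (-1.10 ± 0.092), and Grm2, a Gi-coupled glutamate receptor, had 112, 114, 96.7 and 91.7 with BMS-21 and 255, 287, 229 and 233 with Control (-1.27 ± 0.085). The histamine receptor gene Hrh3 (-1.25 ± 0.20), the growth factor receptor gene Ret (-1.03 ± 0.08) and the glucose transporter gene Slc2a4 (-1.09 ± 0.077) fell. Ihh, which encodes a hedgehog morphogen, had 7.21, 9.45, 12.3 and 2.96 with BMS-21 and 47.4, 43.3, 35.0 and 42.5 with Control (-2.38 ± 0.26), again without overlap.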
